A study of Rattus norvegicus with 6 samples.

Results

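The miR-17-92 and miR-106b-25 clusters are paralogous groups of microRNA (miRNA) genes that are each transcribed as 1 primary transcript and cut into several hairpins. Their genes were found by symbol among the 32883 genes of the small RNA table, of which 458 are named as miRNAs. The symbol pattern matched 10 genes. Of these, 6 form miR-17-92 on chromosome 15 (Mir17, Mir18a, Mir19a, Mir20a, Mir19b1 and Mir92a1, in the order of the plus strand), and 3 form miR-106b-25 on chromosome 12 (Mir106b, Mir93 and Mir25, in the order of the minus strand, inside the Mcm7 gene). The remaining match, Mir935 on chromosome 1, was caught by its digits only and belongs to neither cluster. Positions follow the RefSeq annotation of GRCr8, a different assembly from that of the counts, so chromosomes and order are given without coordinates.

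The libraries come from 6 clones of INS-1, a rat insulinoma line that serves as a β-cell model and here carries human INS-neoR and mouse Ins2-mCherry transgenes. The clones were grown in 7.5 mM glucose. All 6 lines carry a deletion of the imprinted Prader-Willi syndrome (PWS) domain on the silent maternal allele. The 3 control lines (5-9, 2 and 16) keep the active paternal allele, and the 3 PWS lines (3, 19-1 and 19-4) have lost the domain on that allele too. The comparison asks which small RNAs differ when the paternally expressed genes of the domain are missing. Lines 2 and 16 and the PWS lines descend from line 5-9, lines 19-1 and 19-4 are subclones of 1 edited line, and each line gave 1 library, so p-values measure the spread between these clones. The clusters lie on other chromosomes than the deleted domain, and none of their genes was a target of the editing.

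miR-17-92 is widely known as an oncogenic cluster. Its transcription is driven by MYC and E2F factors, and its miRNAs restrain inhibitors of the cell cycle and promoters of apoptosis, among them Cdkn1a and Bcl2l11. miR-106b-25 is processed from an intron of Mcm7, which encodes a subunit of the replicative helicase, and a further paralog, miR-106a-363, lies on the X chromosome. A miRNA recognizes its targets mainly through its seed, so miRNAs of different clusters that share a seed can act on overlapping sets of mRNAs.

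The mature sequences show how the members relate to each other, and they decide which reads can be assigned to 1 gene. RefSeq held a mature sequence for 9 of the 9 cluster genes, each 21 to 23 nt long, and the arm usually loaded into the silencing complex is printed. Capitals mark the seed, bases 2 to 8 from the 5′ end. The first group has the seed AAAGUGC and spans both clusters:
Mir17: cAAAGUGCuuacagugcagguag
Mir20a: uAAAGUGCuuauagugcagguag
Mir106b: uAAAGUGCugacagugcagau
Mir93: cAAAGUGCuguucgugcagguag
The second group has the seed AUUGCAC and also spans both clusters:
Mir92a1: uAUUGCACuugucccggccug
Mir25: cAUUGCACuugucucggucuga
The remaining 3 members belong to miR-17-92 alone, Mir18a with the seed AAGGUGC and the miR-19 pair with GUGCAAA:
Mir18a: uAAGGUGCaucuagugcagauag
Mir19a: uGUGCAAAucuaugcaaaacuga
Mir19b1: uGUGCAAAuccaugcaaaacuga
The 2 genes below are from miR-106a-363 on the X chromosome and are shown because they share a seed with members but have a mature sequence of their own:
Mir20b: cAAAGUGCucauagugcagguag
Mir363: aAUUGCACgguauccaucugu

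Outside the seed the members differed by few bases. Substitutions are written with the base of the gene named first, the position from the 5′ end, and the base of the gene named second. Mir17 and Mir20a differed by C1U and C12U, and Mir20a and Mir20b by U1C and U10C. Mir17 differed from Mir93 by U10G, A11U, C12U and A13C, and from Mir106b by C1U, U10G and G20A over the 21 bases that both have. Mir92a1 and Mir25 differed by U1C, C14U and C18U over 21 bases. The miR-19 pair differed by U11C alone.

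For 3 members of miR-17-92 the printed sequence is not theirs alone. Mir17 has the same mature sequence as Mir106a, Mir19b1 as Mir19b2, and Mir92a1 as Mir92a2, and each partner lies in miR-106a-363. The hairpins of each pair share 27, 25 and 23 bases in a row, in that order, counting 4, 2 and 2 bases before the mature sequence and 0 after it. A read that holds only these bases matches both genes equally well, so the split of reads within a pair does not measure the activity of either locus. How the aligner placed or dropped such reads is not given in the sources used here. The mature sequences of Mir18a, Mir19a, Mir20a and the 3 members of miR-106b-25 matched no other gene of the RefSeq table.

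Library depth ran from 7373691 reads in line 19-4 to 16480475 in line 3, and genes named as miRNAs held 88.5 to 90.0% of the reads. The β-cell markers were present for 10 of 10 listed genes, with a summed level of 1901612 to 3329483 normalized reads in control and 2048348 to 2842669 in PWS lines, almost wholly from Mir375, Mir7a1 and Mir7a2. By the test described with the genotype comparison 0 of the 10 were called, 2 were higher and 8 lower in PWS lines, and 2 had an unadjusted p under 0.05. Of all 4292 genes tested 55 were called and 256 had such a p. The 2 were mRNA fragments of Ins2 (log2 difference -2.03, limma adjusted p = 0.727, with 0 reads in line 19-4) and of Chgb (1.27, limma adjusted p = 0.831). The groups did not overlap for Chgb, as for 11.2% of all genes tested. The part of Ins2 and Chgb in the results below was not tested. Gcg, Sst, Ppy, Cpa1, Prss1, Krt19, Col1a1 and Mir145, which mark other islet cells, exocrine cells or mesenchyme, were at 0 reads in all 6 libraries. The blood list summed to 44.3 to 73.2 in control and 43.1 to 77.8 in PWS lines, mostly from Mir142, and the mesenchyme list to 13.1 to 39.4 and 35.7 to 48.8, all from Mir143. Values below are normalized reads, that is, gene counts divided by 1 size factor per library, and 3 reads correspond to 1.78 to 3.96 normalized reads. A gene row adds up all reads of its hairpin, so the arms of a hairpin are not told apart.

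Among the counted reads miR-106b-25 was at least 443 times as abundant as miR-17-92 in each line. By how much depends on the assignment of reads with identical sequences. Any such reads that the aligner dropped are missing here, so 443 is a bound for the counted reads only. miR-106b-25 summed to 613851, 542400 and 506156 normalized reads in control lines 5-9, 2 and 16 and to 565293, 535354 and 687206 in PWS lines 3, 19-1 and 19-4. miR-17-92 summed to 162, 85.0 and 141 in the same control lines and to 178, 159 and 121 in the PWS lines. The ratio of miR-106b-25 to miR-17-92 as counted was therefore between 3173 in line 3 and 6383 in line 2. If all reads of the pairs with identical mature sequences are given to miR-17-92, an assignment added after the data were seen, its total becomes 401 to 1277 and the ratio 443 in line 3 to 1351 in line 2. miR-106b-25 supplied 5.34 to 7.99% of the reads of all miRNA genes, and miR-17-92 supplied 0.000955 to 0.00203%, or 0.00451 to 0.0146% with all reads of the pairs. Levels of different miRNAs also carry any preference of the library kit for their sequences, which was not tested, so the order of close neighbours is a description of reads.

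**Figure D1:**
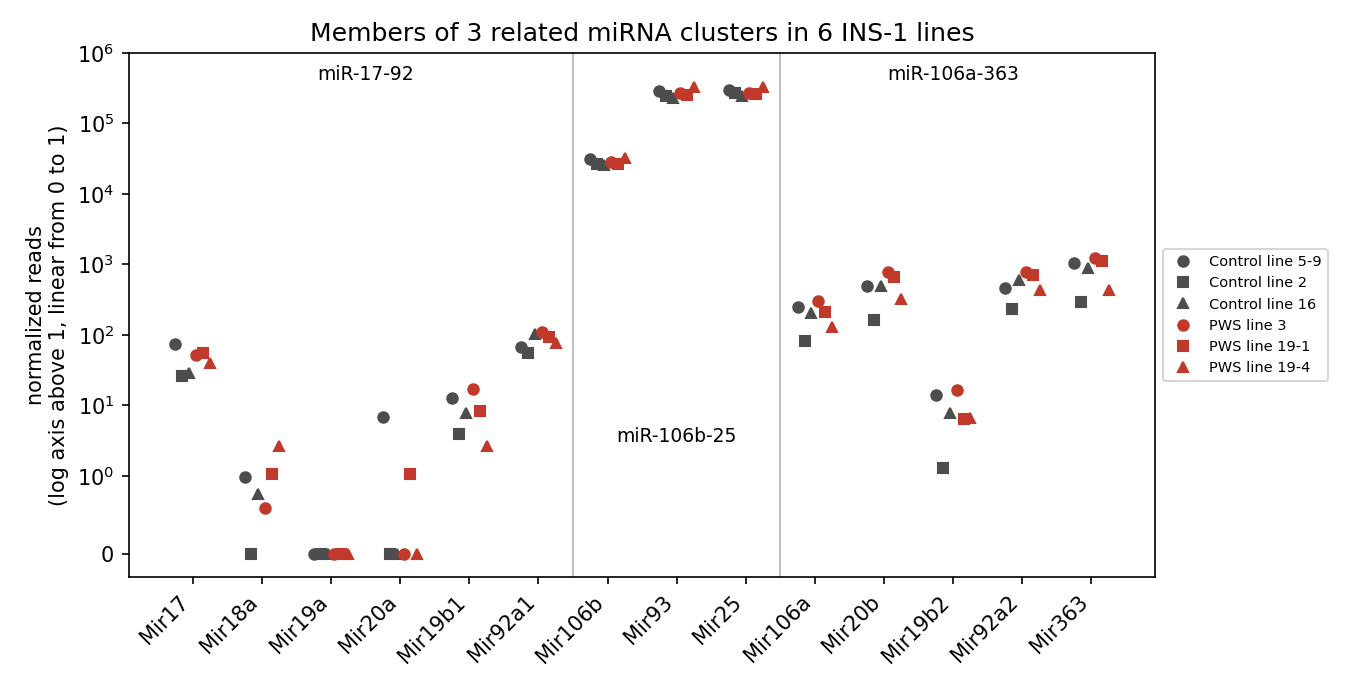
Normalized reads (log axis above 1, linear from 0 to 1) of each gene of miR-17-92, miR-106b-25 and miR-106a-363, with 1 point per line, control in grey and PWS in red. The 3 genes of miR-106b-25 lie between 25737 and 328984 in every line, while the highest value in miR-17-92 is 108, and Mir19a is at 0 in all 6 lines.

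Within miR-106b-25, Mir25 and Mir93 stood side by side and Mir106b lay about an order of magnitude lower. Mir25 had 295460, 268959 and 248187 normalized reads in control lines 5-9, 2 and 16 and 266792, 257743 and 325939 in PWS lines 3, 19-1 and 19-4, and ranked 11 among the miRNA genes by mean level. Mir93 had 287324, 246560 and 232232 in the control lines and 270586, 250825 and 328984 in the PWS lines, and ranked 12. The difference between these neighbours was smaller than the spread of either over the lines, and their order turned in lines 3 and 19-4, where Mir93 was the higher. Mir106b had 31067, 26880 and 25737 in the control lines and 27915, 26786 and 32282 in the PWS lines, and ranked 40. For all 3 genes line 19-4 was the highest of the 6, line 5-9 the highest of the controls and line 16 the lowest of the controls.

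The composition of miR-106b-25 varied much less than its total. Mir93 made up 46.8, 45.5 and 45.9% of the cluster in control lines 5-9, 2 and 16, and 47.9, 46.9 and 47.9% in PWS lines 3, 19-1 and 19-4. Mir25 made up 48.1, 49.6 and 49.0% in the control lines and 47.2, 48.1 and 47.4% in the PWS lines. The Mir93 shares did not overlap between the groups, since the highest control line (5-9) lay just under the lowest PWS line (19-1), whereas the Mir25 shares overlapped. The share of Mir106b stayed between 4.70% in line 19-4 and 5.08% in line 16. The mean Mir93 share was 46.0 ± 0.690% in control and 47.5 ± 0.587% in PWS lines (SD, n = 3 each), and the ratio of Mir93 to Mir25 was 0.942 ± 0.0283 and 0.999 ± 0.0224. Mir93 against Mir106b ran from 9.02 to 9.25 in control and from 9.36 to 10.2 in PWS lines, again without overlap, and Mir25 against Mir106b overlapped at 9.51 to 10.1 over all lines. These shares were looked at after the values were seen and are given without a test. For comparison, 11.2% of all genes tested had levels that did not overlap between the groups, and no such rate was computed for shares or ratios.

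**Figure D2:**
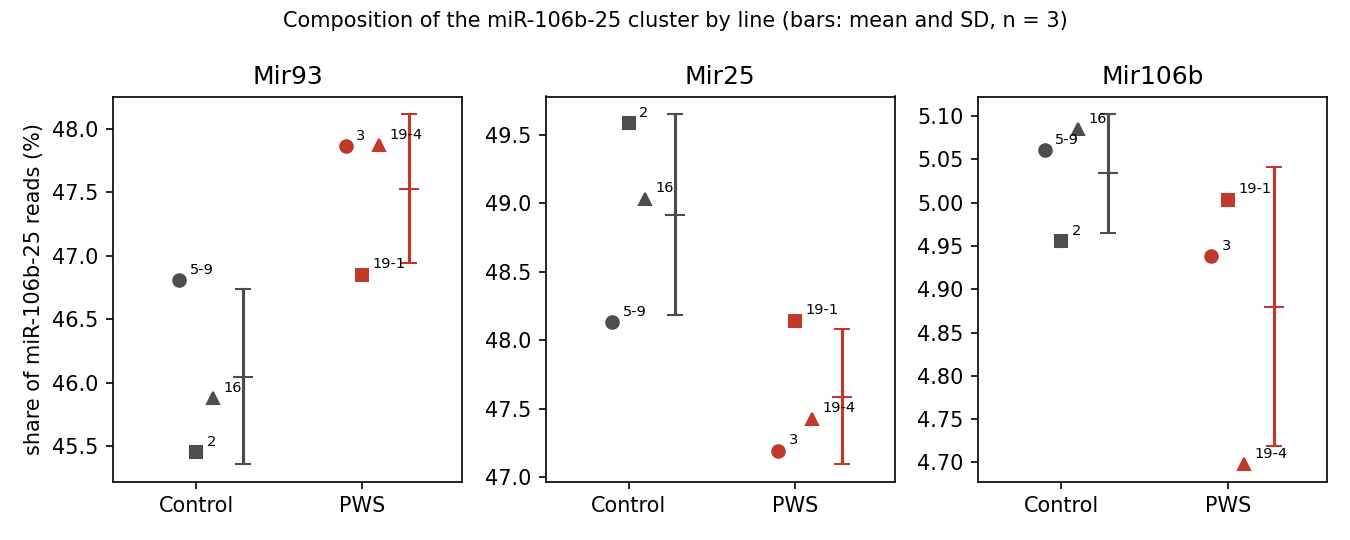
Share of the miR-106b-25 reads (%) held by Mir93, Mir25 and Mir106b in each line, with points labelled by line and bars showing the mean and SD of 3 lines. The vertical axes do not start at 0, and the whole range for Mir93 runs from 45.5 to 47.9%, with the control line 5-9 next to the PWS line 19-1.

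Within miR-17-92 nearly all reads fell on the 3 genes whose mature sequence is also encoded on the X chromosome. Mir92a1 had 67.0, 54.9 and 104 normalized reads in control lines 5-9, 2 and 16 and 108, 92.4 and 76.5 in PWS lines 3, 19-1 and 19-4. Mir17 had 73.9, 26.1 and 28.5 in the control lines and 52.3, 55.7 and 39.6 in the PWS lines. Mir92a1 was higher than Mir17 in every line but 5-9, in which Mir17 led. Mir19b1 had 12.8, 3.92 and 7.72 in the control lines and 17.2, 8.40 and 2.64 in the PWS lines, which rests on 2 to 29 reads per library. These 3 genes ranked 182, 199 and 244 among the miRNA genes. The variation over the 6 lines (SD over mean) was 25.3% for Mir92a1, 39.5% for Mir17 and 62.4% for Mir19b1, against 9.22 to 13.0% for the genes of miR-106b-25.

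The 3 members with a mature sequence of their own were at or near 0. Mir20a had 6.89 normalized reads in control line 5-9 and 1.05 in PWS line 19-1, from 7 and 1 reads, and 0 in the other 4 lines. Mir18a had 0.985, 0 and 0.772 in control lines 5-9, 2 and 16 and 0.594, 1.05 and 2.64 in PWS lines 3, 19-1 and 19-4, from 6 reads in all. Mir19a had 0 reads in each library, with an exact 95% Poisson upper bound of 3.69 reads over the 6 libraries together. Together these 3 genes had 14 reads of 67377309 (exact 95% Poisson interval 7.65 to 23.5, which covers counting error only), whereas the 3 genes with a shared sequence had 941. Mir20b, which differs from Mir20a at 2 bases, had 3452 reads, and Mir363 had 5908. Among the genes that can be told apart by sequence, reads of the X chromosome cluster thus outnumbered those of miR-17-92 in total.

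**Figure D3:**
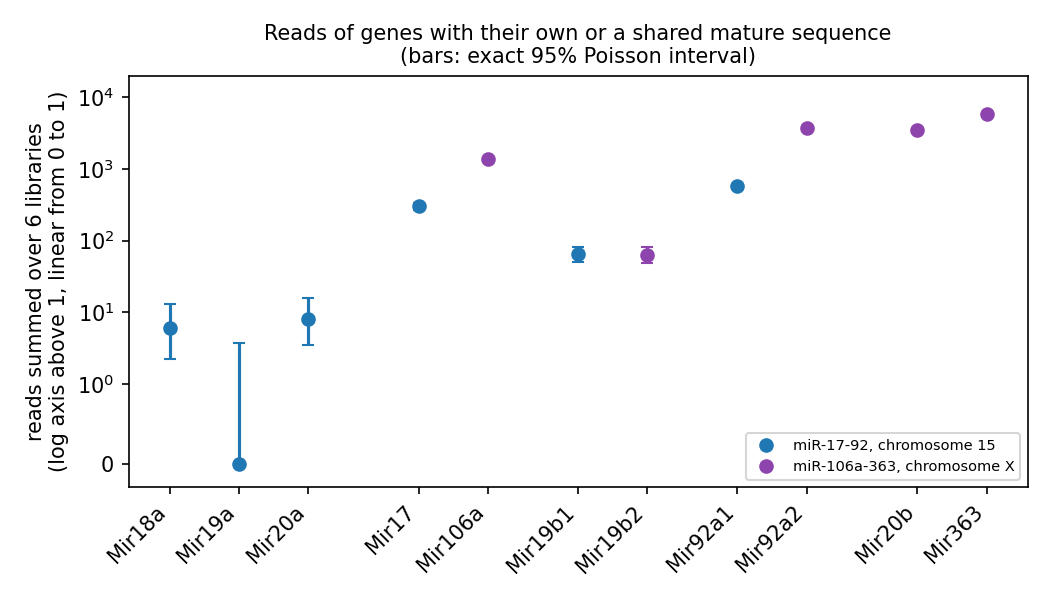
Reads summed over the 6 libraries (log axis above 1, linear from 0 to 1) for genes of miR-17-92 and miR-106a-363, with bars for the exact 95% Poisson interval. On the left, Mir18a, Mir19a and Mir20a have 6, 0 and 8 reads, the 3 pairs in the middle have identical mature sequences within a pair, and Mir20b and Mir363 on the right have 3452 and 5908.

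In the pairs with identical sequences the X chromosome gene had more reads in 2 of 3 cases. Mir106a had 1392 reads against 303 for Mir17, a ratio of 4.59 that ran from 3.15 in line 2 to 7.19 in line 16. Mir92a2 had 3742 against 573 for Mir92a1, a ratio of 6.53 that ran from 4.24 to 7.67. Mir19b2 and Mir19b1 had 64 and 65 reads. Adding up each pair gives a level that does not depend on the split of the counted reads. Mir17, Mir19b1 and Mir92a1 had equal reads in the table that left out reads of several genes, so none of their reads was counted for a partner as well. Reads that the aligner dropped, if any, are missing from the sums. Mir17 and Mir106a together had 324, 109 and 234 normalized reads in control lines 5-9, 2 and 16 and 355, 268 and 169 in PWS lines 3, 19-1 and 19-4. Mir92a1 and Mir92a2 together had 507 ± 210 in control and 733 ± 198 in PWS lines (SD, n = 3 each). Mir19b1 and Mir19b2 together had 15.8 ± 10.7 and 19.3 ± 12.9. In all 3 pairs the groups overlapped, with line 2 the lowest and line 3 the highest.

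Because the seeds cross the clusters, the counted reads of miRNAs that share a seed with both clusters came almost wholly from miR-106b-25. The AAAGUGC pool (Mir17, Mir20a, Mir106b, Mir93, Mir106a and Mir20b) held 283876 ± 31519 normalized reads in control and 313312 ± 43261 in PWS lines. miR-106b-25 supplied 99.6 to 99.9% of it and miR-17-92 no more than 0.0253% in any line as counted, or 0.118% with all counted reads of Mir17 and Mir106a. The AUUGCAC pool (Mir92a1, Mir25, Mir92a2, Mir363, Mir92b and Mir32) held 279076 ± 23274 and 292620 ± 37905. Here miR-106b-25, through Mir25 alone, supplied 96.5 to 97.3% and miR-17-92 at most 0.0405% as counted, or 0.322% with all counted reads of Mir92a1 and Mir92a2. The seeds that only miR-17-92 and its X paralog carry were scarce, with 5.23 to 33.9 normalized reads per line for GUGCAAA and 0 to 2.64 for AAGGUGC.

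None of the cluster genes was called between PWS and control lines. The test was limma-trend on log2(normalized reads + 1) over the 4292 genes whose mean reached 5 normalized reads, and a gene was called at a Benjamini-Hochberg adjusted p under 0.1. In this comparison 55 genes were called, which is 1.28% of those tested, and all 55 were lower in PWS lines. The paper reports that nearly all small RNAs it called belong to the deleted domain. How many of the 55 do was not counted here, so the rate for genes outside the domain is not given. Of the 10 matched genes 6 reached the filter, and 0 of these 6 were called, with 0 at an unadjusted p under 0.05, against 256 of the 4292. edgeR and DESeq2 also called 0 of the 6, each with 0 at an unadjusted p under 0.05, against 230 and 137 of the 4292. The lines of the groups overlapped for each of the 6, and also for all but 11.2% of all genes tested.

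The intervals were narrowest for miR-106b-25. The levels of Mir93 were 255372 ± 28584 in control and 283465 ± 40640 in PWS lines (SD, n = 3 each), a log2 difference, PWS minus control, of 0.15 ± 0.19 (SE, limma adjusted p = 0.918), whose 95% interval corresponds to a fold of 0.833 to 1.47. Mir25 was at 270869 ± 23694 and 283492 ± 37038, with a log2 difference of 0.061 ± 0.19 (limma adjusted p = 0.971) and an interval of 0.789 to 1.38-fold. Mir106b was at 27895 ± 2806 and 28994 ± 2903, with a log2 difference of 0.056 ± 0.20 (limma adjusted p = 0.973) and an interval of 0.774 to 1.40-fold. The bounds differed little between the 3 genes, and each interval included 1. The direction for Mir25 and Mir106b rested on line 19-4, since without it the log2 differences were -0.043 and -0.024. That of Mir93 was 0.035 without the same line and 0.081 to 0.23 without any other.

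For miR-17-92 the intervals were wider. Mir92a1 was at 75.3 ± 25.7 in control and 92.3 ± 15.8 in PWS lines, a log2 difference of 0.33 ± 0.32 (limma adjusted p = 0.889) with an interval of 0.781 to 2.02-fold. Mir17 was at 42.9 ± 26.9 and 49.2 ± 8.5, a log2 difference of 0.34 ± 0.39 (limma adjusted p = 0.904) with an interval of 0.713 to 2.25-fold. Control line 5-9 was the highest of all lines for Mir17, and without it the log2 difference was 0.81 with an unadjusted p of 0.0468 in limma and an adjusted p of 0.893. Without line 2 or 16 the difference of Mir17 was 0.078 or 0.14 instead, and that of Mir92a1 was 0.13 or 0.58. Without line 3 that of Mir92a1 was 0.21. Mir19b1 was at 8.15 ± 4.46 and 9.42 ± 7.35, a log2 difference of 0.025 ± 0.57 (limma adjusted p = 0.992), and its interval of 0.440 to 2.35-fold allows a large change either way. Its direction turned without line 2, 3 or 19-1, at -0.36, -0.52 and -0.045. The median log2 difference of the 6 genes was 0.10, against 0.0048 over all genes tested and -0.14 over the 259 miRNA genes tested.

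**Figure D4:**
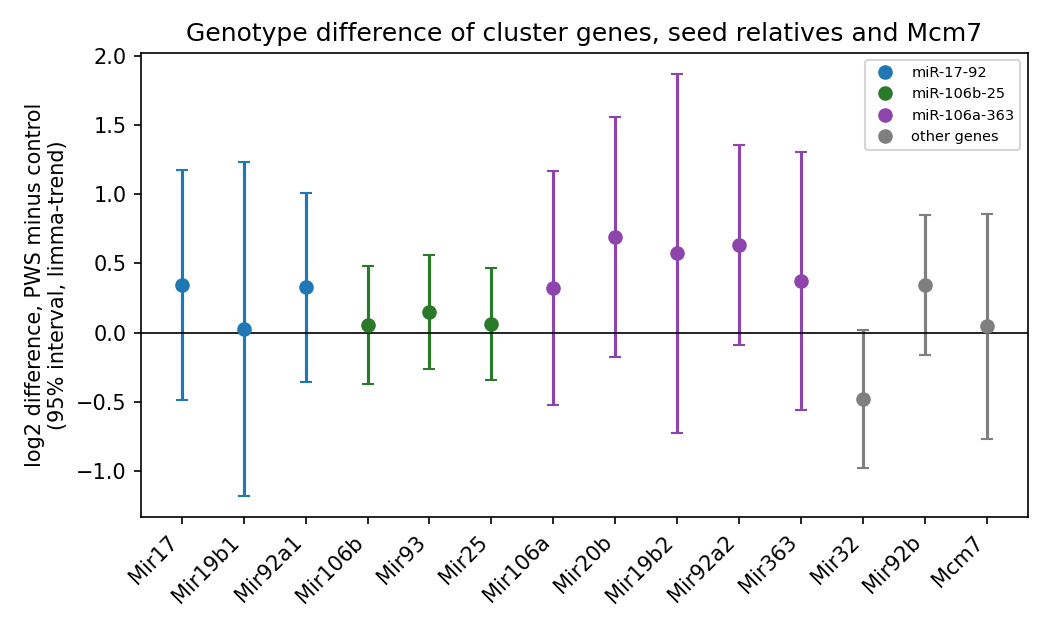
Log2 difference of PWS minus control lines with its 95% interval from limma-trend, for the 6 tested cluster genes, the 5 genes of miR-106a-363, the seed relatives Mir32 and Mir92b, and Mcm7. Every interval includes 0, and those of Mir106b, Mir93 and Mir25 are narrower than those of Mir17, Mir19b1 and Mir92a1.

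The cluster totals showed the same spread. miR-17-92 was at 129 ± 39.7 in control and 153 ± 28.9 normalized reads in PWS lines, and miR-106b-25 at 554136 ± 54799 and 595951 ± 80434 (SD, n = 3 each). The log2 difference of the miR-17-92 total was 0.27, and -0.0023 without line 2. That of miR-106b-25 was 0.10, and -0.0059 without line 19-4. Line 2 had the lowest miR-17-92 total and line 19-4 the second lowest, and these lines also had the shallowest libraries, at 7634142 and 7373691 reads. In miR-106b-25 the order was different, with line 19-4 highest and line 16 lowest. The part of depth in these orders was not tested.

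Mir935, the gene matched by its digits, had 0.985, 0 and 0.772 normalized reads in control lines 5-9, 2 and 16 and 5.35, 8.40 and 3.96 in PWS lines 3, 19-1 and 19-4. Its groups did not overlap, as was the case for 11.2% of all genes tested. It rested on 22 reads in all, its mean lay below the filter, and it was not tested. With the filter lowered to a mean of 1 limma gave it a log2 difference of 2.13 ± 0.69 (SE, adjusted p = 0.441). It had 0 reads in the table that left out reads assignable to several genes, whereas the 9 cluster genes had equal reads in both tables.

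The X chromosome cluster lay between the other 2 clusters in level, under either assignment of the shared reads that were counted. miR-106a-363 summed to 2256, 775 and 2196 normalized reads in control lines 5-9, 2 and 16 and to 3120, 2698 and 1326 in PWS lines 3, 19-1 and 19-4, which as counted is 9.12 to 17.5 times the miR-17-92 total of the same line. With all reads of the identical pairs given to miR-17-92 the ratio is 1.10 in line 19-4 to 1.73 in line 5-9, with Mir20b and Mir363 alone left on the X side. As in miR-17-92, lines 2 and 19-4 were the lowest of their groups. All 5 of its genes in the table were tested and 0 were called. Mir20b had 384 ± 193 in control and 589 ± 234 in PWS lines and a log2 difference of 0.69 ± 0.41 (limma adjusted p = 0.860). Mir92a2 was at 431 ± 186 and 641 ± 183, with 0.63 ± 0.34 (limma adjusted p = 0.848), and Mir363, Mir106a and Mir19b2 had log2 differences of 0.37 ± 0.44, 0.32 ± 0.40 and 0.57 ± 0.61 (limma adjusted p = 0.904, 0.912 and 0.898). Without control line 2 these differences were 0.16 for Mir20b, 0.24 for Mir92a2, -0.19 for Mir363, -0.16 for Mir106a and -0.19 for Mir19b2. Without PWS line 3 they were 0.45, 0.47, 0.087, 0.033 and 0.16 in the same order. Without line 19-4 that of Mir20b was 1.07, and the order of the 5 genes changed with the line left out. The share of Mir20b in this cluster was 21.8 ± 0.784% in control and 24.7 ± 0.132% in PWS lines, without overlap between the groups, whereas the shares of the other 4 genes overlapped. This is a description made after the values were seen. The levels of 11.2% of all genes tested did not overlap between the groups, and no such rate was computed for shares. Mir18b and the miR-17-92 host transcript Mir17hg matched no row and were not analysed here.

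Mir32 and Mir92b carry the AUUGCAC seed outside the 3 clusters. Mir32 had 2677, 2643 and 2913 normalized reads in control lines 5-9, 2 and 16 and 2496, 1647 and 1838 in PWS lines 3, 19-1 and 19-4. The PWS lines were all lower than the lowest control line, a separation that 11.2% of the genes tested had in either direction, and the log2 difference of -0.48 ± 0.24 was not called (limma adjusted p = 0.835). Mir92b had 4216 ± 350 in control and 5475 ± 1562 in PWS lines (log2 difference 0.34 ± 0.24, limma adjusted p = 0.875), and without line 19-4, its highest, the difference was 0.12. Both lay far under Mir25, which was at 248187 or more in each line.

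The host gene Mcm7 could be followed only through mRNA fragments that passed the size selection. It had 10.9 ± 2.11 normalized reads in control and 11.4 ± 2.99 in PWS lines, from 70 reads in all, with a log2 difference of 0.044 ± 0.38 (limma adjusted p = 0.986). Fragment counts do not measure the amount of intact mRNA. The same holds for the 27 linked genes (regulators such as Myc and the E2f factors, cell cycle genes, and targets such as Bcl2l11 and Cdkn1a). Of these, 26 had a row, 8 reached the filter and 0 were called, with 3 higher and 5 lower in PWS lines and a median log2 difference of -0.10. The 3 with the highest mean were Myc (54.2 ± 4.08 in control and 64.2 ± 25.7 in PWS lines), Mki67 (18.9 ± 11.1 and 16.3 ± 5.57) and Top2a (14.9 ± 4.07 and 16.5 ± 4.02), which mark or drive proliferation. Their log2 differences were 0.17 ± 0.34, -0.073 ± 0.45 and 0.14 ± 0.37, with limma adjusted p of 0.950, 0.984 and 0.961.

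The miRNA genes whose pattern over the lines was most like that of each cluster were sought among the 168 other miRNA genes that averaged 100 or more normalized reads. Likeness was the root mean square difference between log2 values centred on their mean over the 6 lines, so a smaller value is more alike. For miR-106b-25 the closest were Mir184, a miRNA abundant in β-cells, at 0.11, Mir21 at 0.129 and Mir101-2 at 0.129, against a median of 0.349 over the candidates and a deviation of the cluster total itself of 0.145. For miR-17-92 the closest were Mir194-2 at 0.138, Mir340-1 at 0.144 and Mir340-2 at 0.144, against a median of 0.422 and a deviation of 0.351. Mir194-2 followed the miR-17-92 total in having line 2 lowest and line 19-4 second lowest. The points share libraries and depth, and the likeness is a description over 6 lines.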

How the data were processed

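Small RNA libraries of 3 control and 3 PWS lines were made by the study with a miRNA kit that adds unique molecular identifiers and a widened size selection. Per the submitters' processing notes, UMI-tools 1.0.0, cutadapt 1.18, Bowtie2 2.3.4.2, HTSeq 0.11.2, featureCounts and DESeq2 were used on Rnor_6.0. The role of featureCounts is not given in the sources used here. The authors divided the gene counts of each library by its DESeq2 size factor, and the deposited signal is in these normalized reads. Each value above 0 was a whole multiple of 1 read (100% of values, tolerance 0.001), so reads were recovered. In the main table a read of several genes was counted for each, and in the alternative table it was left out. The deposited log2 fold changes, their standard errors (recorded as a score), the p-values and the mean signal come from the authors' own DESeq2 comparison and were not used.

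Genes averaging 5 or more normalized reads were tested by limma-trend (limma 3.58.1, R 4.3.3) on log2(value + 1). Genotype was the only term, and p-values were adjusted by Benjamini-Hochberg over all genes. A gene was called under 0.1, which was the cutoff of the study. The pseudocount understates changes of genes with few reads. Alternatives were edgeR 4.0.16 and DESeq2 1.42.0 on recovered reads, other scalings, pseudocounts and filters, the alternative table, a threshold of 0.05, a replicate block, the mean of both subclones, and leaving out each line. Scripts were tested on simulated data. The text names every matched gene, the X chromosome paralogs, host genes, seed relatives, the 3 miRNAs most like each cluster total, and the 3 linked genes with the highest mean. A further gene of the linked list is not reported here. Members, lists and tests were chosen with earlier results of these data known. Mature sequences are from RefSeq (GRCr8). Depth per library and the level of 3 reads stand with the results, and exact Poisson intervals and the level of 3 reads cover counting error only, whereas limma intervals cover the spread between lines.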

Additional observations from a re-analysis of the deposited data

How the results depend on the processing

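The number of cluster genes called was 0 under all 20 alternatives, and the number of all genes called ran from 41 to 66, against 55 (44 to 58 when 1 line was left out). Of 119 alternative log2 differences of cluster genes 5 changed sign and 0 were called, and all 5 came from leaving out a line. Ranges of the log2 difference when 1 line was left out were 0.078 to 0.81 for Mir17, 0.13 to 0.58 for Mir92a1, 0.035 to 0.23 for Mir93, 0.16 to 1.07 for Mir20b, 0.24 to 0.92 for Mir92a2, 0.12 to 0.46 for Mir92b, -0.66 to -0.36 for Mir32, 0.012 to 0.26 for Mir184, -0.52 to 0.64 for Mir19b1, -0.043 to 0.13 for Mir25, -0.024 to 0.14 for Mir106b, -0.16 to 0.64 for Mir106a, -0.19 to 1.15 for Mir19b2, -0.19 to 0.85 for Mir363, -0.14 to 0.19 for Mcm7, -0.23 to 0.37 for Mir194-2, -0.21 to 0.26 for Mir340-1, -0.22 to 0.25 for Mir340-2, -0.088 to 0.090 for Mir21, -0.16 to 0.024 for Mir101-2, -0.13 to 0.43 for Myc, -0.57 to 0.34 for Mki67 and -0.040 to 0.34 for Top2a. With lines 19-1 and 19-4 averaged Mcm7 was at -0.021, and with scaling by the summed miRNA reads Mir101-2 was at 0.026 and Mki67 at 0.019. The log2 difference of the miR-17-92 total, 0.27, ran from -0.0023 (without line 2) to 0.46 when 1 line was left out, and that of miR-106b-25, 0.10, from -0.0059 (without line 19-4) to 0.18. That of the ratio of miR-106b-25 to miR-17-92, -0.17, ran from -0.44 (without line 19-4) to 0.090 (without line 2). Mir106a, Mir19b2 and Mir363 turned without line 2. With all reads of the identical pairs given to miR-17-92, added after the data were seen, its log2 difference was 0.50 and that of the ratio -0.40. The cause of the sign changes was not tested.

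Lines with the same replicate number deviated from their group means with correlations of 0.41, 0.22 and -0.057 over 1087 genes. Lines with different numbers were not compared, so these values do not decide whether the numbers pair the lines. Fitted with a replicate block, limma called 56 genes and 0 cluster genes. Depth limits Mir18a, Mir19a, Mir20a and Mir19b1, whose libraries held at most 29 reads of any of them.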
